A study of Homo sapiens with 6 samples.

Results

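The SLC12 family is named for cation-chloride cotransporters, membrane proteins that carry chloride across the plasma membrane together with sodium, potassium or both. *SLC12A8* and *SLC12A9* are more distant relatives to which this description need not apply. The genes described here are *SLC12A2*, *SLC12A3*, *SLC12A4*, *SLC12A5*, *SLC12A7*, *SLC12A8* and *SLC12A9*, which are 7 of the 20348 genes in the table, matched by symbol with 1 row each. Other SLC12 genes were not analysed here. RNA-seq was made from MV4-11, an established human acute myeloid leukemia (AML) cell line that carries a KMT2A fusion and an internal tandem duplication of FLT3. The 2 groups were 3 Control samples, left untreated, and 3 samples given 1 μM of WNK463, a compound that inhibits WNK kinases, for 48 h. Both groups share the cell line, and the labels name no vehicle for the Control samples. The samples bear separate numbers, but whether they were separate cultures is not stated, so the p-values measure the spread between these samples, which may be technical.

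WNK kinases sense cell shrinkage and low chloride and phosphorylate the kinases SPAK (*STK39*) and OSR1 (*OXSR1*). These in turn phosphorylate the cotransporters, which activates the sodium-coupled importers and inhibits the potassium-coupled exporters. In this way the WNK pathway raises cell chloride and volume, and in the kidney it sets salt reabsorption. This control acts on the proteins, whereas the libraries measured the transcripts of the same genes. Blood cells use both kinds of transporter to regulate their volume.

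Total counts per library lay between 14915745 and 17411780. Levels are given as CPM, the counts per 1000000 counts of a library scaled by edgeR's TMM factors, or as the deposited TPM, which is corrected for transcript length and is the scale on which different genes were compared. The TMM factors were 0.944 to 0.951 in Control and 1.05 to 1.06 with WNK463. When libraries were scaled by their totals alone, the median change over all tested genes moved from 0.02 to 0.17 on the log2 scale, and the calls at an adjusted p below 0.05 from 4251 higher and 4222 lower to 5519 higher and 3125 lower. Of 11 markers of myelomonocytic leukemia, 10 were at 1 TPM or more in every library and *MPO* was below it in a WNK463 library. Their summed level was 2574 to 2747 TPM in Control and 1556 to 1601 TPM with WNK463, and the part of this shift in the results below was not tested. The sum follows its most abundant markers, so it does not show that each marker fell. In these bulk samples, fewer cells of a type and less RNA per cell cannot be told apart. Of the 4 markers of kidney tubule, where *SLC12A3* is best known, all were below 1 TPM in every library, and 3 were listed at 0.

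Of the 7 genes, 3 rose, 1 fell and 3 did not pass with edgeR's quasi-likelihood test at an adjusted p below 0.05. In the background of all 11973 tested genes, 35.5% were called higher, 35.3% lower and 70.8% in either direction, so a call at this threshold was common. *SLC12A5*, *SLC12A2* and *SLC12A7* were the higher genes and *SLC12A4* was the lower gene. When a 2-fold difference was required as well, *SLC12A5* alone was called and none of the 7 genes was called lower. At this stricter rule 9.62% of all tested genes were higher, 5.55% lower and 15.2% either. The median of the 7 log2 fold changes was 0.18, against 0.02 over all tested genes. All 7 genes passed the filter on low counts, *SLC12A8* only through the WNK463 samples.

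The sequence before the start site is shown for the 3 genes with called changes past 0.5 on the log2 scale, 1 of which fell while the others rose. Each window holds the 250 bases before the RefSeq start on GRCh38.p14, written 5′ to 3′ along the gene's strand, with the GC box GGGCGG or its reverse complement in capitals. The *SLC12A2* window is chr5:128083516-128083765 on the plus strand, the *SLC12A4* window, before the farthest upstream of its 4 RefSeq starts, is chr16:67968695-67968944 on the minus strand and the *SLC12A5* window is chr20:46021436-46021685 on the plus strand.
SLC12A2: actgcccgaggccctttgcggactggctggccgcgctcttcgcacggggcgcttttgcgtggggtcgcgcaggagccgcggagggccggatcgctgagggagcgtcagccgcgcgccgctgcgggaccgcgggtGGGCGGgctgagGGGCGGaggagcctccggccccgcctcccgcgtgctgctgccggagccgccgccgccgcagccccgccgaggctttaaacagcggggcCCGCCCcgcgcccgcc
SLC12A4: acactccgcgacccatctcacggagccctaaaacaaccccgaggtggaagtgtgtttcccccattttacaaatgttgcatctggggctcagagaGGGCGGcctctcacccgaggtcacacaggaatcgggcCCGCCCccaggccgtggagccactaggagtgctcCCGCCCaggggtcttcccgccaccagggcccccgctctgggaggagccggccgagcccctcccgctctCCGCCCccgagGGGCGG
SLC12A5: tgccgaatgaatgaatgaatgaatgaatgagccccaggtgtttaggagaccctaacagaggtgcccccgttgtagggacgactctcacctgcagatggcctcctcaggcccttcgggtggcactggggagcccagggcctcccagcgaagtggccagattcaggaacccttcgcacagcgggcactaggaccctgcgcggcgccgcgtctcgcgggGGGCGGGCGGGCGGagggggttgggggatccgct
The *SLC12A2* window held 3 GC boxes, the *SLC12A4* window 5 and the *SLC12A5* window 3, overlapping matches included. The GC box stood on either strand in 42.6% of 35116 RefSeq windows of the same length. The *SLC12A2*, *SLC12A4* and *SLC12A5* windows were 79.6%, 68.4% and 65.6% G and C, against a median of 58% over all windows. None of the 3 windows printed held the TATA box TATAAA, the CCAAT box CCAAT, the E-box CACGTG, the NFAT core TGGAAA or the E2F site TTTGGCGC on either strand. Of the other *SLC12A4* windows, chr16:67966795-67967044 held 1 CCAAT box and 1 NFAT core and no GC box, chr16:67968638-67968887 held 8 GC boxes, and chr16:67964053-67964302 held none of the 6 motifs. The shares of all windows with the TATA box, CCAAT box, E-box, NFAT core and E2F site were 10.7%, 32%, 6.34%, 18% and 0.55% in that order. Of the 7 genes, only *SLC12A3* had a TATA box in a window, chr16:56864957-56865206. Where these letters are absent, nothing follows about the factors that bind them.

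*SLC12A2* (ENSG00000064651) encodes NKCC1, the importer of sodium, potassium and chloride found in most cells and blocked by bumetanide. On GRCh38 it occupies chr5:128083766-128189688 (plus strand). Its level was 8.10, 10.1 and 11.8 CPM in the Control samples and 16.6, 19.2 and 18.3 CPM with WNK463. All WNK463 samples lay above all Control samples, and the Control samples spread more widely than the treated ones. The Control mean was 9.98 ± 1.84 CPM and the WNK463 mean 18.04 ± 1.33 CPM (SD, n = 3 each), a 1.81-fold rise. On the log2 scale this was 0.85 with a standard error of 0.12 (edgeR, adjusted p = 7.6e-06), higher than that of 87.9% of tested genes. Permuting the 6 values exactly (two-sided) gave p = 0.10, below which 3 samples against 3 cannot go. The counts behind these values were 133 to 193 in Control and 275 to 331 with WNK463.

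*SLC12A3* (ENSG00000070915) encodes NCC, the thiazide-sensitive importer of sodium and chloride of the distal kidney tubule, whose loss causes Gitelman syndrome. The gene occupies chr16:56865207-56915850 (plus strand). MV4-11 cells held 275 to 374 counts of it per library. The level was 21.2, 19.5 and 16.8 CPM in Control and 21.0, 20.5 and 23.9 CPM with WNK463. The groups overlapped, since Control replicate 1 exceeded 2 of the WNK463 samples. The log2 fold change was 0.18 (95% interval -0.03 to 0.39, adjusted p = 0.11 from edgeR). Total-count scaling gave 0.33 with an adjusted p of 0.0071, and leaving out Control replicate 1 gave 0.26 with an adjusted p of 0.031, both from edgeR. It was 0.08 without Control replicate 3 and 0.11 without WNK463 replicate 3, with adjusted p of 0.49 and 0.39 from edgeR.

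*SLC12A4* (ENSG00000124067) encodes KCC1, a potassium and chloride exporter that is present in most tissues and takes part in the volume loss of maturing red cells. The gene occupies chr16:67943474-67969601 (minus strand). It was at 32.9, 27.2 and 28.2 CPM in Control and at 16.8, 18.4 and 16.4 CPM with WNK463. Every treated sample lay below every Control sample, and Control replicate 1 was the highest of the 6. The WNK463 mean of 17.2 ± 1.04 CPM was 58.4% of the Control mean of 29.5 ± 3.01 CPM (SD, n = 3 each). The fitted difference was -0.78 on the log2 scale with a standard error of 0.09 (edgeR, adjusted p = 6.6e-07), and 9.55% of tested genes had a lower value. This was the smallest p of the 7 genes. The last 658 bases of the gene overlap *LCAT*, which encodes an enzyme of plasma cholesterol and lies on the same strand. *LCAT* held 22 to 56 counts per library, had a log2 fold change of -0.57 with an adjusted p of 0.11 from edgeR, and its part in the *SLC12A4* counts was not tested.

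*SLC12A5* (ENSG00000124140) encodes KCC2, the exporter that keeps chloride low in neurons and so makes GABA inhibitory. The gene occupies chr20:46021690-46060152 (plus strand). It had 26, 14 and 14 counts in Control and 45, 46 and 48 with WNK463, which are few. These correspond to 1.58, 0.960 and 0.854 CPM in Control and 2.72, 2.67 and 3.06 CPM with WNK463. The groups did not overlap, and the highest Control sample was again replicate 1. The difference was 1.30 on the log2 scale, with a 95% interval of 0.68 to 1.92 (edgeR, adjusted p = 7.3e-04). Without each sample in turn it ranged from 1.12 to 1.62 and remained called. The first 384 bases of the gene overlap the antisense gene *SLC12A5-AS1*, and a strand setting of the counting is not given in the sources used here.

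*SLC12A7* (ENSG00000113504) encodes KCC4, an exporter of potassium and chloride that is active in swollen cells. The gene occupies chr5:1050376-1112035 (minus strand). It was at 86.3, 86.3 and 85.4 CPM in Control and at 98.7, 95.2 and 96.0 CPM with WNK463. Relative to their mean the replicates lay closer together than for any other of the 7 genes, with a Control SD of 0.538 CPM. The mean rose from 86.0 to 96.6 CPM, a 1.12-fold difference, or 0.17 ± 0.05 (SE) on the log2 scale (edgeR, adjusted p = 0.0070). The size depended on the scaling, as it was 0.32 with total counts and 0.39 with limma on log2(TPM + 0.1).

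*SLC12A8* (ENSG00000221955) and *SLC12A9* (ENSG00000146828) are more distant relatives. *SLC12A8* has been described as a transporter of nicotinamide mononucleotide, which is debated, and occupies chr3:125082636-125212864 (minus strand). It had 10, 7 and 1 counts in Control and 13, 15 and 13 with WNK463. The 2 groups did not overlap, but Control replicate 3 stood far below the other Control samples. The log2 fold change was 1.11 with a standard error of 0.52 and an adjusted p of 0.064 from edgeR. It was 0.58 without Control replicate 3 and 1.64 without Control replicate 1, so single Control samples set this value. Since the gene passed the filter only through the WNK463 samples, where it was higher, its test and its lack of overlap lend no support to a difference. *SLC12A9* encodes CIP1, which was found as a protein that interacts with NKCC1, and occupies chr7:100826820-100867009 (plus strand). It was at 64.9, 56.1 and 55.3 CPM in Control and at 58.9, 60.5 and 64.5 CPM with WNK463. The groups overlapped, and the log2 fold change was 0.06 (95% interval -0.09 to 0.20, adjusted p = 0.45 from edgeR). With scaling by total counts it was 0.21 with an adjusted p of 0.011 from edgeR. The antisense gene *SLC12A9-AS1* overlaps it over 15303 bases and *EPHB4* over 702 bases on the opposite strand, and *EPHB4* held 58 to 85 counts per library.

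**Figure D1:**
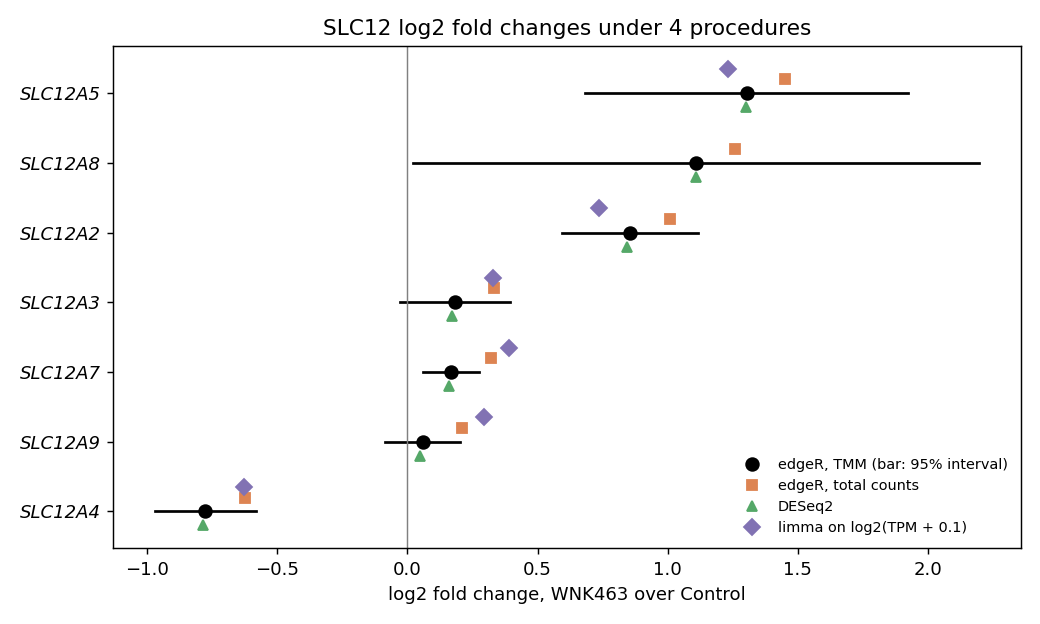
Log2 fold change of WNK463 over Control on the x axis for each of the 7 genes, with 3 samples per group. Black points are edgeR values with TMM and bars their 95% intervals, squares are total-count scaling, triangles DESeq2 and diamonds limma on log2(TPM + 0.1), which has no value for *SLC12A8*. *SLC12A4* lies below 0 under each procedure drawn, *SLC12A5* and *SLC12A2* lie well above it, and total-count scaling moves each gene to the right.

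In CPM the groups did not overlap for 5 of the 7 genes, *SLC12A8* among them, against 73.5% of all tested genes. In TPM they did not overlap for all 7 genes, 6 of them higher and *SLC12A4* lower, against 70.5% of tested genes. In both counts *SLC12A8* lends no support, as it passed the filter only through the WNK463 samples. The TPM scale divides each library by its own total, as total-count scaling does, and it carries the same upward shift of the median. The direction of each of the 7 genes was the same with TMM, with total counts, with DESeq2 and with TPM. In total, the 7 genes summed to 106, 98.8 and 96.3 TPM in Control and 125, 120 and 131 TPM with WNK463, a ratio of 1.25 between the group means. Within these sums *SLC12A5*, which had few counts, averaged 5.09 TPM in Control and 11.7 TPM with WNK463.

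*SLC12A9* and *SLC12A7* were the most abundant of the 7 genes per length and *SLC12A8* the least. In Control, *SLC12A9* was at 37.9 ± 1.18 TPM, *SLC12A7* at 30.3 ± 0.516 TPM and *SLC12A4* at 14.6 ± 2.51 TPM (SD, n = 3). *SLC12A3* followed at 8.71 ± 0.867 TPM, *SLC12A5* at 5.09 ± 1.83 TPM, *SLC12A2* at 3.67 ± 0.730 TPM and *SLC12A8* at 0.251 ± 0.187 TPM (SD, n = 3). Of the neighbours in this order, only *SLC12A5* and *SLC12A2* overlapped between libraries. By mean Control TPM, *SLC12A9* had rank 4351 and *SLC12A2* rank 9786 of the 20348 genes.

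With WNK463 the order of the middle genes was different. *SLC12A9* was at 46.5 ± 3.02 TPM and *SLC12A7* at 39.7 ± 1.16 TPM, and both kept the top places (SD, n = 3). *SLC12A5* came next at 11.7 ± 1.08 TPM, then *SLC12A3* at 11.0 ± 1.06 TPM, and these neighbours overlapped between libraries. *SLC12A4* moved from the third place to the fifth at 9.32 ± 0.627 TPM (SD, n = 3). *SLC12A2* was at 6.12 ± 0.696 TPM and *SLC12A8* at 0.889 ± 0.241 TPM, the last of the order as in Control.

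**Figure D2:**
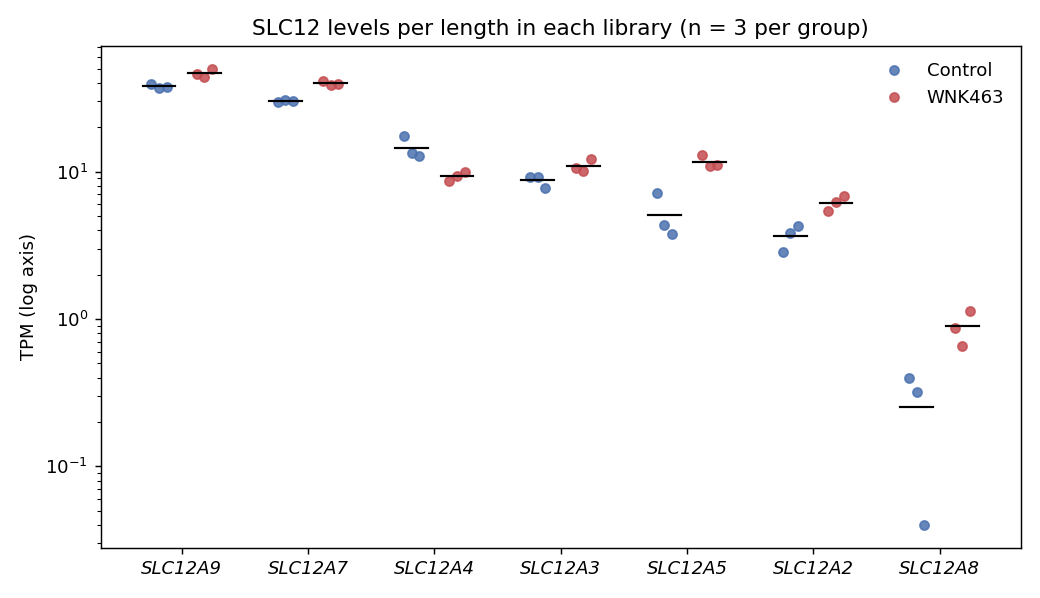
TPM of the 7 genes on a log axis in each library, with genes ordered by their mean in Control. Each point is a library, Control in blue and WNK463 in red, and the line is the mean of 3. *SLC12A4* is the gene whose red points lie below its blue points, and *SLC12A8* has a Control library at 0.040 TPM.

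The make-up of the 7 transcripts shifted mainly between the smaller members. *SLC12A9* held 37.7% ± 1.16 of the summed TPM in Control and 37.2% ± 0.937 with WNK463, and *SLC12A7* held 30.2% ± 1.78 and 31.8% ± 1.33 (SD, n = 3 each). The group means of these shares differed by less than the SD of the Control samples. *SLC12A4* held 16.4%, 13.6% and 13.3% in Control and 6.93%, 7.81% and 7.60% with WNK463, with no overlap. *SLC12A5* held 6.76%, 4.39% and 3.89% in Control and 10.3%, 9.09% and 8.55% with WNK463. Its share rests on 14 to 48 counts per library and on the short transcript length described below. In CPM, not corrected for length, its means were only 1.13 in Control and 2.82 with WNK463. *SLC12A2* went from 3.68% ± 0.898 to 4.89% ± 0.496 (SD, n = 3 each), and its groups overlapped, as Control replicate 3 exceeded WNK463 replicate 1.

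**Figure D3:**
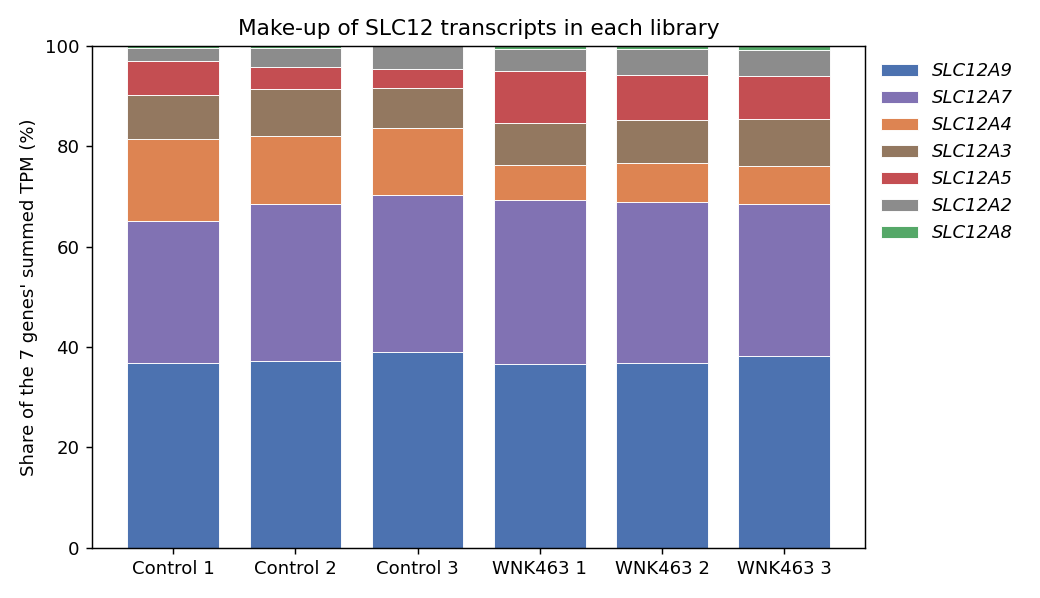
Share of each gene in the summed TPM of the 7 genes, in percent on the y axis, as a stacked bar for each of the 6 libraries. The *SLC12A4* segment is smaller in every WNK463 library than in every Control library, and the *SLC12A5* segment larger. The *SLC12A5* segment rests on 14 to 48 counts per library and on a short transcript length.

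A ratio of 2 genes within a library does not depend on how the libraries are scaled. *SLC12A2* stood to *SLC12A4* as 0.164, 0.286 and 0.335 in Control and as 0.623, 0.659 and 0.684 with WNK463, in TPM. The ratio of the importer NKCC1 to the exporter KCC1 was thus higher in every treated library, by 1.39 on the log2 scale (p = 0.10 in an exact permutation test). The ratios of single genes were chosen after the values were seen, and no ratio can reach p below 0.10 with these sample numbers. *SLC12A4* stood to *SLC12A7* as 0.584, 0.434 and 0.427 in Control and as 0.211, 0.242 and 0.251 with WNK463. The difference was -1.02 on the log2 scale, again with no overlap (exact two-sided permutation test, p = 0.10).

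Set against the sum of *SLC12A4*, *SLC12A5* and *SLC12A7*, the exporters among the 7 genes, *SLC12A2* changed less. The ratio was 0.0526, 0.0789 and 0.0922 in Control and 0.0863, 0.105 and 0.112 with WNK463. The groups overlapped, as Control replicate 3 exceeded WNK463 replicate 1, and the difference of 0.47 on the log2 scale gave p = 0.20 in the exact two-sided permutation test. In CPM the same ratio was 0.067, 0.0881 and 0.103 in Control and 0.141, 0.165 and 0.158 with WNK463, with no overlap and a difference of 0.87 (exact two-sided permutation test, p = 0.10). Without *SLC12A5* in the sum, an alternative chosen after the data were seen, the difference in TPM was 0.62 and the groups did not overlap. Against *SLC12A7* alone it was 0.36 in TPM, and the groups overlapped. For the sum of *SLC12A4*, *SLC12A5* and *SLC12A7*, the difference in TPM dropped to 0.24 without Control replicate 1.

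**Figure D4:**
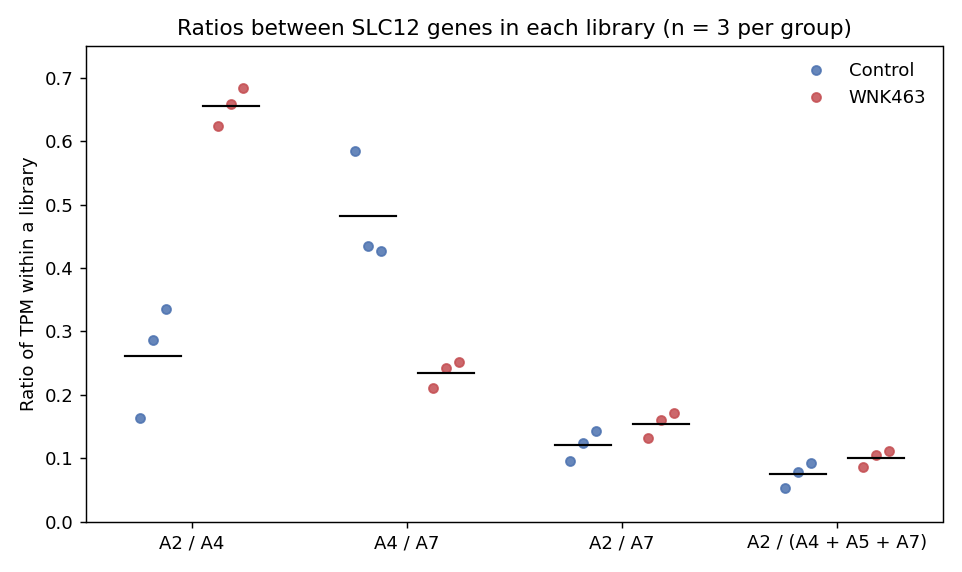
Ratios of TPM between SLC12 genes within each library, where A2 stands for *SLC12A2* and so on. Each point is a library, Control in blue and WNK463 in red, and the line is the mean of 3. The *SLC12A2* to *SLC12A4* ratio lies between 0.164 and 0.335 in Control and between 0.623 and 0.684 with WNK463, whereas the ratio of *SLC12A2* to *SLC12A7* and that to the sum of all 3 exporters overlap between the groups.

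Counts divided by TPM give a value proportional to the effective transcript length that the authors' estimation assigned to a gene in each library. It was put on a scale of bases with a single factor per library, from 401 genes that have a single transcript in GENCODE 29. Whether this factor holds for short transcripts was not tested, so short implied lengths are approximate and may be too low. For *SLC12A7* this length was 5283 bases in Control and 5172 with WNK463, and its longest annotated transcript has 5280 bases. For *SLC12A5* it was 405, 415 and 426 bases in Control and 448, 525 and 580 with WNK463, although its longest transcript has 6166 bases. Of the 25 annotated *SLC12A5* transcripts 14 are shorter than 700 bases. Counts per transcript were not available, so how its reads were divided among these transcripts is not known. Its place in the TPM order rests on this short implied length, since its counts were below those of *SLC12A2* in every library.

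*SLC12A2* also had a longer implied transcript after treatment, at 5185, 4924 and 5113 bases in Control and 6534, 6663 and 5680 bases with WNK463. The groups did not overlap, the ratio was 1.24 (exact two-sided permutation test, p = 0.10), and 97.7% of genes had a smaller ratio. Groups without overlap in this length were common, at 47.4% of the 11150 genes with at least 10 counts in every sample. For *SLC12A3*, *SLC12A4*, *SLC12A7*, *SLC12A8* and *SLC12A9* the groups overlapped.

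**Figure D5:**
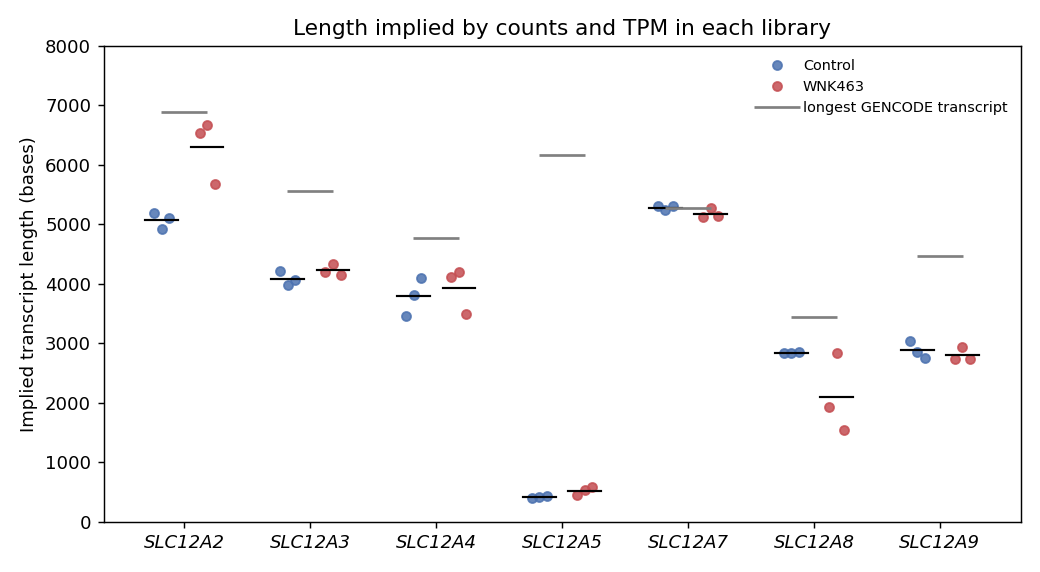
Transcript length in bases implied by counts and TPM, for each of the 7 genes and each library. Each coloured point is a library, the black line is the mean of 3 and the grey line the longest GENCODE 29 transcript. *SLC12A5* lies between 405 and 580 bases, far under its grey line, and *SLC12A2* is longer in the WNK463 libraries.

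The genes around the cotransporters were described with 3 lists, to be read against the 35.5% higher, 35.3% lower and 70.8% called in either direction among all tested genes, whose median was 0.02. Of 16 genes of the WNK-SPAK/OSR1 cascade 11 passed the filter, and 6 rose, 3 fell and 2 did not pass, with a median log2 fold change of 0.27. *WNK1*, the kinase at the top, had 0.09 (adjusted p = 0.12 from edgeR). It was called higher with total counts (0.24, adjusted p = 4.4e-04 from edgeR), with limma on log2(TPM + 1) (0.25, adjusted p = 0.011) and without WNK463 replicate 2 (0.13, adjusted p = 0.040 from edgeR), and it was 0.03 without WNK463 replicate 1. *OXSR1* was higher, at 114.5 ± 2.89 CPM against 94.8 ± 3.08 CPM (SD, n = 3 each). *STK39* had -0.31 with an adjusted p of 0.048 from edgeR. That call was lost under DESeq2 (adjusted p = 0.11) and with total counts (adjusted p = 0.30 from edgeR). It was also lost with limma on TPM under any setting, and where every sample had to hold 10 counts. Leaving out Control replicate 3, WNK463 replicate 1 or WNK463 replicate 2 lost it as well. *CAB39*, the scaffold that activates SPAK and OSR1, had 0.41 and *KLHL2*, an adaptor of the ligase that degrades WNK kinases, had 1.30. *PPP1CA* and *PPP1CC*, catalytic subunits of protein phosphatase 1, had -0.48 and -0.31, and the *PPP1CC* call was lost with limma on TPM.

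The sodium pump keeps the gradients that the importers draw on. Of 14 genes 7 passed the filter, with 2 higher, 4 lower and a median of -0.17. *ATP1B1* and *FXYD6* rose by 1.95 and 1.09 on the log2 scale from low levels of 1.10 and 1.56 CPM. *ATP1B3*, the main beta subunit here, had -0.17, and *FXYD5* had -0.36. With total counts *ATP1B3* was at -0.02 (adjusted p = 0.75) and *FXYD5* at -0.20 (adjusted p = 0.059), both from edgeR and neither called. With limma on TPM the sign of *ATP1B3* turned and *FXYD5* was not called.

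Of 32 genes of anion exchange and cell volume 24 passed, with 18 higher, 3 lower and a median of 0.37. *NFAT5*, the transcription factor of the response to hypertonic stress, was at 98.7 ± 12.1 CPM with WNK463 and 38.9 ± 2.44 CPM in Control (SD, n = 3 each), or 1.34 on the log2 scale. *SLC6A6*, the taurine transporter, rose by 0.93 on the log2 scale, while *AKR1B1*, which makes sorbitol, had -0.52 and the anion exchanger *SLC4A2* had -0.34. *LRRC8A*, the essential subunit of the volume-regulated anion channel, had -0.10 with an adjusted p of 0.26 from edgeR, and its sign turned with total counts and with limma on TPM.

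The genes whose pattern over the 6 samples was nearest to each SLC12 gene were found by the root mean square difference of centred log2(CPM + 0.5). The added 0.5 narrows differences between genes at low levels. The nearest to *SLC12A2* were *STXBP3* and *TMEM71*, at 0.0524 and 0.0559. *SAMD10* and *CAMKK2* were nearest to *SLC12A4* at 0.0423 and 0.0446, and *FMC1* and *FAM229A* to *SLC12A5* at 0.0588 and 0.0657. The log2 fold change of *FAM229A* was 2.12, against 1.30 for *SLC12A5*. *SRGAP2* was near *SLC12A7* at 0.0137. For *SLC12A3* they were *ENDOV* and *PPFIA3* at 0.0303 and 0.0467, and for *SLC12A9* *EIF6* and *RPLP1* at 0.0259 and 0.0284. For *SLC12A8* the nearest genes, *ANKAR* and *ZMYND12*, were farther away at 0.112 and 0.120. With 6 samples in 2 groups this likeness follows mostly the difference between the groups.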

How the data were processed

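RNA was captured with mRNA beads and sequenced on an Illumina Novaseq X Plus. Per the labels, fastp, Bowtie2, HISAT2, StringTie, RSEM, DESeq2 and edgeR were used with GRCh38, without roles or versions. The authors deposited estimated counts, in whole numbers and not normalized, and 62 of these values were 0 beside a TPM above 0. The authors also deposited TPM values and their own mean TPM, fold changes, p-values and adjusted p-values, which were not used. Counts were tested on all genes with edgeR 4.0.16 in R 4.3.3 (quasi-likelihood test, TMM, low genes removed by filterByExpr, Benjamini-Hochberg adjustment, no replicate block). Standard errors were derived from the F statistic and the fitted change. Alternatives used DESeq2 1.42.0 and limma 3.58.1 on log2(TPM + 1) and log2(TPM + 0.1) for genes at 1 TPM or more in at least 3 samples. On simulated counts edgeR recovered 200 of 200 changed genes, with 9 false calls among 11960. The changed genes all had ample counts and 2-fold differences, and every gene had the same dispersion, so high recovery was likely from the start. Dispersion that differs between genes was not simulated. Recovery with 70.8% of genes changed, the share called in these data, was not tested. Recovery of genes with few counts, as *SLC12A5* and *SLC12A8*, or of small differences, as for *SLC12A7*, was not tested separately. Groups came from the sample titles. The members, gene lists and tests were chosen with earlier results of these data known. Named genes were the 7 members, 9 fixed list genes, the 2 genes per list and direction with the smallest p, and the 2 nearest patterns per member. Overlapping genes were added later. Of the named genes, 2 are not reported here. Promoters came from RefSeq (GRCh38.p14), where all 7 members matched, and gene positions from GENCODE 29. Replicates of a group differed beyond sampling noise (chi-square per degree of freedom 2.68 to 7.40).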

Additional observations from a re-analysis of the deposited data

How the results depend on the processing

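The log2 fold changes of the 7 SLC12 genes were set against 95 combinations of a gene and an alternative. Of these, 84 kept the direction and the side of the threshold, 11 passed newly, and 0 were lost or reversed. The new calls were for *SLC12A3*, *SLC12A8* and *SLC12A9*. Those of *SLC12A8* lend no support, as it passed the main filter only through the WNK463 samples. The number of SLC12 genes called higher was 6 with total counts and 5 with limma on log2(TPM + 1), with or without its filter, and on log2(TPM + 0.1). Requiring a 2-fold difference left 1 higher and 0 lower. With each sample left out in turn, 3 to 5 were higher and 1 was lower, and the 5 came without Control replicate 1. *SLC12A8* had no value where every sample had to hold 10 counts, nor with limma on filtered TPM.

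In CPM, which is not corrected for length, *SLC12A9* held 28.6% of the 7 genes in Control and 28.0% with WNK463, *SLC12A7* 42.0% and 44.2%, and *SLC12A2* 4.90% and 8.25%. With each sample left out, the *SLC12A9* share was 37.1% to 38.2% in Control against 36.6% to 37.5% with WNK463, and the *SLC12A7* share from 29.7% to 31.2% and from 31.2% to 32.5%. The *SLC12A4* share ranged from 13.5% to 15% and from 7.26% to 7.71%, and the *SLC12A2* share from 3.29% to 4.17% and from 4.74% to 5.18%. The log2 difference of *SLC12A2* over the summed exporters ranged from 0.24 to 0.64, and over *SLC12A4* alone from 1.08 to 1.60.

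Of the sodium pump list, 2 genes were lower with total counts and 1 with limma on TPM under any setting, and 4 were higher with limma on unfiltered TPM. Of the cascade list, 1 gene was lower with limma on TPM under any setting. With each sample left out, the cascade list had 6 to 8 higher and 2 to 3 lower, the pump list 2 higher and 3 to 4 lower, and the volume list 16 to 18 higher and 3 lower. Of 238 combinations for the 17 named list genes, 209 were the same, 17 lost the call (*STK39*, *FXYD5*, *PPP1CC* and *ATP1B3*), 5 gained it (all *WNK1*) and 7 reversed. The reversed values were those of *ATP1B3* with limma on TPM (0.11 with either pseudocount and without the filter) and of *LRRC8A* with total counts (0.0515), limma on log2(TPM + 1), filtered or not (0.081), and limma on log2(TPM + 0.1) (0.0857). The cause was not tested.

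Deviations from the group means of like-numbered samples were barely correlated across genes (0.01, 0.02 and -0.06), and the numbers were not used as pairs. Adding the replicate block, the same number of SLC12 genes was called, 3 higher and 1 lower, and the total went from 8473 to 8398. Low counts limit *SLC12A5* and *SLC12A8*.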
